A study of Mus musculus with 9 samples.

Results

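The NR4A nuclear receptors, the EGR zinc finger factors and the factors that act with them were followed in murine Tc17 cells, which are CD8+ T cells cultured to produce IL-17. The members were chosen by name and comprised Nr4a1, Nr4a2, Nr4a3, Egr1, Egr2, Egr3, Nab2, Nfatc1 and Tox. They are 9 of the 41388 genes measured, and all 9 were among the 11599 genes tested, which had 10 or more normalized counts on average. Naive CD62L+CD44-CD8+ T cells were sorted from lymph node and spleen of C57BL/6 mice, which were 8 to 12 weeks old according to the methods. Every culture received plate-bound anti-CD3, soluble anti-CD28, IL-2 at 50 U/ml, TGF-β, IL-6 and an antibody against IFN-γ for 2 days, in 0.2% of the solvent DMSO. Ctrl cultures received DMSO alone, DMF cultures received 20 µM dimethyl fumarate, a thiol-reactive drug used in multiple sclerosis, and DMF + GSH cultures received 20 µM DMF with 50 µM glutathione. Each group had 3 libraries, with replicate 1 prepared in batch 1 and replicates 2 and 3 in batch 2. The comparisons ask how DMF changed these factors and whether the change was still present when GSH was added.

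Signals from the T cell receptor raise calcium in the cell, and the phosphatase calcineurin then lets NFAT factors enter the nucleus. In parallel, the MAP kinase cascade switches on EGR genes such as Egr1. NR4A and EGR genes are immediate early genes whose mRNA rises soon after receptor engagement. EGR2, EGR3 and the NR4A factors are known to restrain T cells, and NFAT, NR4A and TOX factors are known from T cells that are chronically stimulated. Since all cultures were held on anti-CD3, no unstimulated level was measured.

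Depth ranged from 7671772 to 14511926 reads per library, and the members were covered by 214 reads (Egr2) to 5581 reads (Nfatc1) in a library. CD8 markers (Cd8a and Cd8b1) summed to 12145 to 14257 normalized counts in Ctrl, 13744 to 17402 with DMF and 11829 to 15974 with DMF + GSH, whereas the CD4 T cell markers summed to between 41.8 and 86.5, with Cd4 at most at 4.40 and the rest from Zbtb7b. The 5 T cell markers summed to 20082 to 23330 in Ctrl, 17000 to 19943 with DMF and 20151 to 24137 with DMF + GSH, so that the DMF libraries were below the others without overlap. Of these 5, Cd3d, Cd3e, Cd3g and Lck had a lower mean with DMF than in Ctrl, and Cd2 a higher one (2414 against 2133). B cell markers summed to between 58.1 and 92.0 in all libraries, most of it from Cd79b. Of the macrophage and monocyte markers, the 3 found in the table summed to 182 in Ctrl replicate 3, with Lyz2 at 119 and Csf1r at 58.3, and to between 2.08 and 18.4 in the other 8 libraries. The 4 dendritic cell markers summed to 62.6 to 79.0 in Ctrl, 21.2 to 26.1 with DMF and 38.9 to 84.7 with DMF + GSH, with Flt3, Siglech and Zbtb46 low and most of the sum from Xcr1. The part of the T cell, CD8 and dendritic cell markers in the results was not tested, and values without Ctrl replicate 3 are given for the members called. The 2 NK cell markers summed to at most 4.16 and the 3 erythroid markers to at most 0.968.

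The promoters of the 3 NR4A genes are shown because the clearest change among the members lay in this family, and because their start regions hold the same short motif several times. The sequences are RefSeq promoter windows (GRCm38.p6), cut to the part before the start site that lies in no annotated exon, and are written 5′ to 3′ on the strand of the gene. Capitals mark TGACG on either strand (CGTCA when read on the other strand), the half-site of the cAMP response element bound by CREB factors.
Nr4a1: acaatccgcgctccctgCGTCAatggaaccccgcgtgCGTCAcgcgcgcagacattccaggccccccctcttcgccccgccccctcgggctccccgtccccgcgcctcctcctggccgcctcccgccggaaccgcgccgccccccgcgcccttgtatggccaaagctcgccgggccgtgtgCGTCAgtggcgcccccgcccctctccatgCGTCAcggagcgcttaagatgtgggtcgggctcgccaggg
Nr4a2: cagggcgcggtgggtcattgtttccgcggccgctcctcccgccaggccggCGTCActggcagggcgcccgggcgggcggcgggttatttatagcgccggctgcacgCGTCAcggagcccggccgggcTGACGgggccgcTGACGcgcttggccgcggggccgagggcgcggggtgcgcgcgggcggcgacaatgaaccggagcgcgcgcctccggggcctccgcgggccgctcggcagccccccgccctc
Nr4a3: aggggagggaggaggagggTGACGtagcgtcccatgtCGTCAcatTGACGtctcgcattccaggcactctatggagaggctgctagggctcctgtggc
The Nr4a1 sequence lies at chr15:101266596-101266845, the Nr4a2 sequence at chr2:57124004-57124253 on the minus strand and the Nr4a3 sequence at chr4:48045055-48045152. The whole windows of 300 bases hold TGACG 4 times in Nr4a1, 4 times in Nr4a2 and 4 times in Nr4a3, and the stretches printed hold it 4, 4 and 3 times. Of all 32544 distinct windows of this length, 20.9% hold TGACG and 0.234% hold it at least 4 times. The half-site is shown for its hits, so that these shares are a description. Nr4a1 and Nr4a2 hold it as often as Nr4a3 and were not called with DMF. Other motifs were searched as well. The NFAT core GGAAA, which 61.5% of all windows hold, was found 1 time in the Nr4a2 window and not in those of Nr4a1 and Nr4a3. The full element TGACGTCA, which contains the half-site on both strands and stands in 1.8% of all windows, was not found in the windows of these 3 genes. A match describes the letters in a window, and binding was not measured. Windows were matched by symbol for 5 of the 9 members, also for Egr2 and Nab2, with no half-site in the Nab2 window.

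Nr4a3 was the member with the largest difference between Ctrl and DMF. The gene encodes the orphan receptor NOR1 and lies at chr4:48045153-48086447 (GRCm38, plus strand). Ctrl replicates 1, 2 and 3 held 827, 1014 and 809 normalized counts of Nr4a3, the DMF libraries held 2037, 1448 and 1868, and the DMF + GSH libraries held 1031, 1028 and 814. All DMF libraries lay above all Ctrl and all DMF + GSH libraries, while the ranges of the latter 2 groups overlapped. The mean was 884 ± 114 (SD, n = 3) in Ctrl, 1784 ± 303 with DMF and 957 ± 124 with DMF + GSH. DMF raised Nr4a3 by a log2FC of 1.01 ± 0.107 (SE, 95% interval 0.78 to 1.23, p adj = 5.77e-07), on the scale of log2(normalized count + 1). The increase was seen in 3 of 3 replicate numbers, with differences of 1.30 in replicate 1, 0.51 in replicate 2 and 1.21 in replicate 3. Replicate 1 is the whole of batch 1, and the mean over batch 2 was 0.86. With GSH added, Nr4a3 was lower than with DMF alone by a log2FC of −0.89 ± 0.107 (p adj = 2.95e-06), and it fell in 3 of 3 replicate numbers. The log2FC of DMF + GSH against Ctrl was 0.11 (95% interval −0.11 to 0.34, p adj = 0.9996). The p-values measure the spread between these cultures, since the labels do not say whether replicates came from separate animals, and bulk RNA cannot tell fewer cells of a type from less RNA per cell.

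Nr4a1, which encodes NUR77 and is widely used as a reporter of receptor signal strength, lies at chr15:101254269-101274795. It had 1533, 1801 and 1674 normalized counts in Ctrl replicates 1 to 3, 1699, 2132 and 1459 in the DMF libraries and 1594, 1747 and 1384 in the DMF + GSH libraries. The groups overlapped, and replicate 2 was the highest in each of them. Its log2FC with DMF was 0.06 (95% interval −0.09 to 0.21, p adj = 0.489), and the change had no common sign over the 3 replicate numbers. Between DMF + GSH and DMF its log2FC was −0.15 (p adj = 0.0984), with lower values in 3 of 3 replicate numbers.

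Nr4a2, which encodes NURR1, lies at chr2:57106830-57124003 on the minus strand. It had 953, 948 and 690 normalized counts in Ctrl replicates 1 to 3, 943, 1030 and 723 in the DMF libraries and 1162, 925 and 762 in the DMF + GSH libraries. Replicate 3 was the lowest library of each group, and the groups overlapped throughout. The log2FC was 0.06 (95% interval −0.10 to 0.21, p adj = 0.561) with DMF and 0.07 (p adj = 0.458) for DMF + GSH against DMF. The difference between the response of Nr4a3 and that of Nr4a1 to DMF was 1.15, 0.27 and 1.40 on the log2 scale in the 3 replicate numbers, and against Nr4a2 it was 1.31, 0.39 and 1.14. Nr4a3 was thus above both paralogs in 3 of 3 replicate numbers. It was set against them after its change was known, so that these differences are given as a description, without a test.

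**Figure D1:**
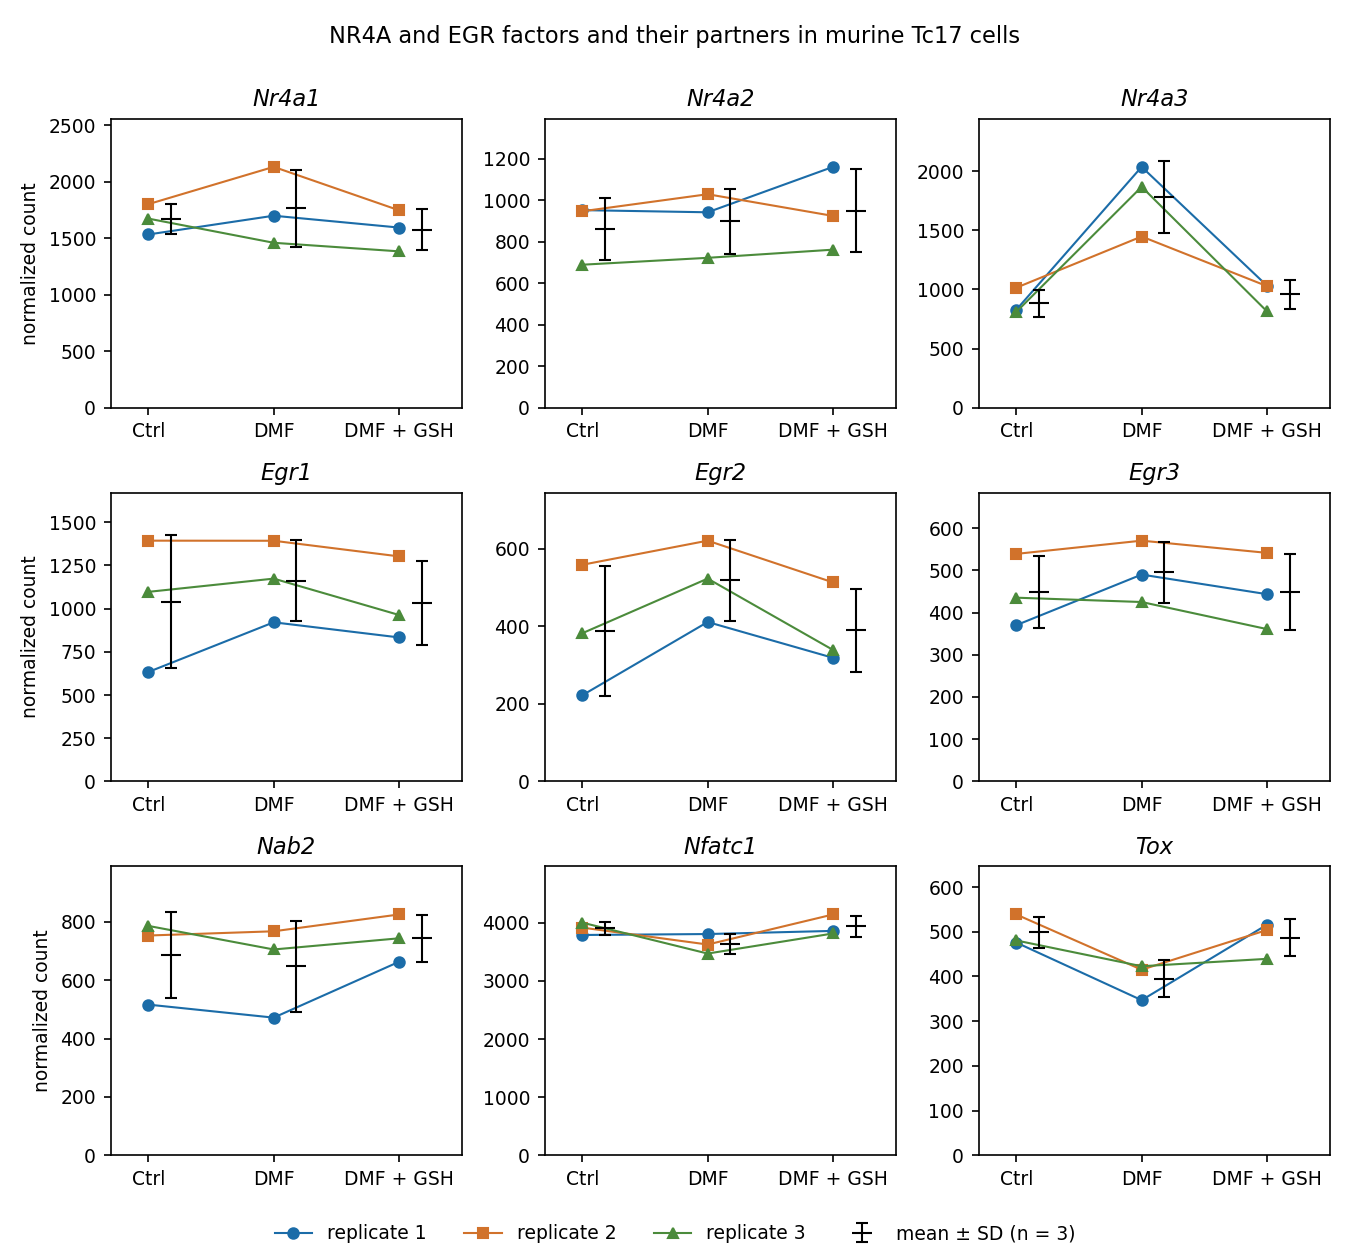
Normalized count (vertical axes, from 0) of each of the 9 members in Ctrl, DMF and DMF + GSH. Coloured points joined by lines are libraries with the same replicate number, and black marks give the mean ± SD of 3 libraries; Nr4a3 peaks with DMF at 1448 to 2037 in every replicate number, Tox dips to 347 to 423, and Egr1 and Egr2 differ more between replicate numbers than between groups.

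Egr2 was the EGR gene with a called increase. It encodes a zinc finger factor tied to T cell anergy and lies at chr10:67535475-67542188 (plus strand). Ctrl replicates 1, 2 and 3 held 222, 559 and 383 normalized counts of Egr2, the DMF libraries held 412, 621 and 524, and the DMF + GSH libraries held 319, 514 and 339. The ranges overlapped, since the highest Ctrl library stood above 2 of the 3 DMF libraries, and the difference appears when libraries of the same number are compared. The mean was 388 ± 168 in Ctrl, 519 ± 105 with DMF and 391 ± 107 with DMF + GSH. DMF raised Egr2 by a log2FC of 0.50 ± 0.116 (95% interval 0.25 to 0.74, p adj = 0.00179), and the gain was 0.88 in replicate 1, 0.15 in replicate 2 and 0.45 in replicate 3. With GSH added to DMF, Egr2 was lower by a log2FC of −0.42 ± 0.116 (p adj = 0.00680), in 3 of 3 replicate numbers. These calls rest on the pairing: with the batch term of the study's own model in place of the replicate number, p adj was 0.0930 for DMF and 0.156 for DMF + GSH against DMF. The DMF call was also lost without Ctrl replicate 1 (log2FC 0.29, p adj = 0.0290), without DMF replicate 1 (0.0210) or without DMF replicate 3 (0.0191), within a range of 2.03e-05 to 0.237 over all alternatives.

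Egr2 has several start sites in RefSeq, and a 30-base stretch before the site at position 67537869 (chr10:67537794-67537823, plus strand) is shown because it holds a CRE half-site, in capitals as above.
Egr2 stretch: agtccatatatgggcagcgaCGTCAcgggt
The half-site was found 2 times in this window of 300 bases and was not found in the windows of the starts at 67535499 and 67537566.

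Egr1, the best known immediate early gene of the family, lies at chr18:34859823-34864984. It had 633, 1392 and 1096 normalized counts in Ctrl replicates 1 to 3, 920, 1392 and 1173 in the DMF libraries and 833, 1301 and 963 in the DMF + GSH libraries. In every group replicate 1 was the lowest and replicate 2 the highest library. The log2FC with DMF was 0.21 (95% interval 0.03 to 0.40, p adj = 0.0604), made up of 0.54 in batch 1 and a mean of 0.05 in batch 2. Between DMF + GSH and DMF it was −0.18 (p adj = 0.126).

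Egr3, which acts beside Egr2 in T cells, lies at chr14:70077203-70082614. It had 370, 539 and 435 normalized counts in Ctrl replicates 1 to 3, 490, 570 and 425 in the DMF libraries and 443, 541 and 361 in the DMF + GSH libraries. Its groups overlapped, and its log2FC was 0.15 (95% interval −0.04 to 0.34, p adj = 0.196) with DMF and −0.15 (p adj = 0.203) for DMF + GSH against DMF. The batch 1 difference with DMF was 0.40 and the batch 2 mean 0.02, so that all 3 EGR genes had their largest gain in replicate 1. The response of Egr2 exceeded that of Egr1 by 0.35, 0.15 and 0.35 in the 3 replicate numbers and that of Egr3 by 0.48, 0.07 and 0.49. Egr2 was likewise chosen for its change, and these differences are a description.

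Nab2 encodes a corepressor that binds EGR factors and is itself an EGR target. The gene lies at chr10:127660918-127668568 (minus strand) and overlaps Stat6, Nemp1 and Gm16229; the sources used here do not state whether strand was used in counting, so reads from the overlap cannot be told apart. It had 517, 753 and 786 normalized counts in Ctrl replicates 1 to 3, 472, 768 and 706 in the DMF libraries and 663, 826 and 744 in the DMF + GSH libraries. Replicate 1 was the lowest library in every group. The log2FC was −0.09 (95% interval −0.26 to 0.09, p adj = 0.420) with DMF and 0.22 (p adj = 0.0375) for DMF + GSH against DMF, in which 3 of 3 replicate numbers were higher, by 0.49, 0.10 and 0.08, without passing the threshold of 0.01. Without DMF + GSH replicate 1, the latter log2FC was 0.10 (p adj = 0.347, within 0.0142 to 0.443 over all alternatives).

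Nfatc1 encodes the NFAT factor that T cells induce on activation. It lies at chr18:80606205-80713071 on the minus strand and overlaps AC123818.1. It had 3790, 3917 and 4003 normalized counts in Ctrl replicates 1 to 3, 3807, 3626 and 3471 in the DMF libraries and 3861, 4143 and 3816 in the DMF + GSH libraries. It was the steadiest member, with the highest Ctrl library 1.06 times the lowest, against 2.51 times for Egr2 and 2.20 times for Egr1. All DMF + GSH libraries stood above all DMF libraries, although the lowest of them (3816) was close to the highest of the DMF group (3807), whereas DMF and Ctrl overlapped. The log2FC was −0.10 (95% interval −0.22 to 0.01, p adj = 0.130) with DMF and 0.12 (p adj = 0.0946) for DMF + GSH against DMF.

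Tox, which encodes an HMG box factor known from exhausted CD8+ T cells, was the member that fell. It lies at chr4:6686353-6991557 on the minus strand and overlaps Gm11802. It had 476, 539 and 481 normalized counts in Ctrl replicates 1 to 3, 347, 415 and 423 in the DMF libraries and 516, 504 and 439 in the DMF + GSH libraries. All DMF libraries were lower than all Ctrl and all DMF + GSH libraries. The mean was 498 ± 35.0 in Ctrl, 395 ± 41.8 with DMF and 487 ± 41.2 with DMF + GSH. DMF lowered Tox by a log2FC of −0.34 ± 0.0889 (95% interval −0.52 to −0.15, p adj = 0.00448), and the difference was −0.45, −0.38 and −0.18 in replicates 1, 2 and 3. For DMF + GSH against DMF the log2FC was 0.30 (95% interval 0.12 to 0.49, p adj = 0.0107), just outside the threshold, with higher values in 3 of 3 replicate numbers. With the batch term in place of the replicate number the DMF call was lost (p adj = 0.0375), and it was also lost without any of the 3 Ctrl libraries (0.0168, 0.0335 and 0.0141), without DMF replicate 1 (0.0525) or without DMF replicate 2 (0.0152), within 0.00135 to 0.0525 over all alternatives. Without Ctrl replicate 3, the library with Lyz2 and Csf1r, the log2FC with DMF was −0.35 for Tox, 0.98 for Nr4a3 and 0.57 for Egr2.

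**Figure D2:**
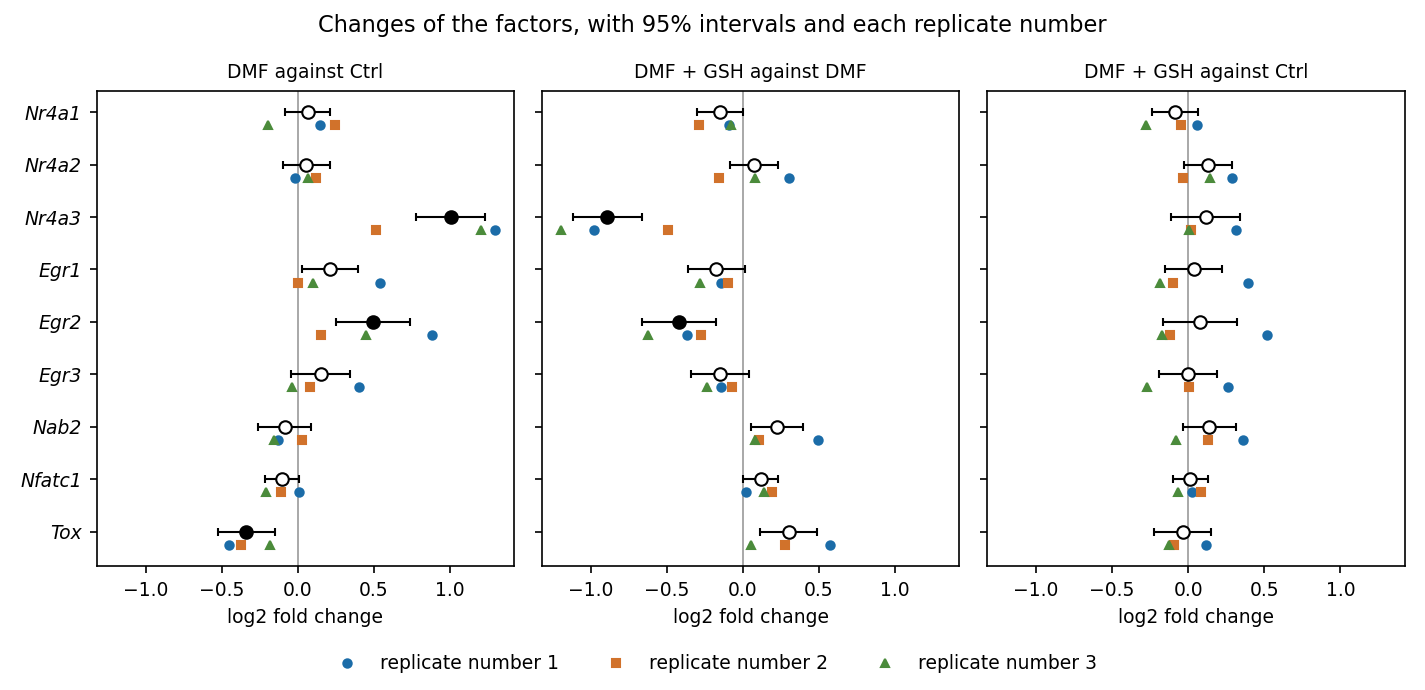
Log2 fold change (horizontal axes) of the 9 members in 3 comparisons. Circles with bars are the fitted value and its 95% interval, filled where p adj is under 0.01, and coloured marks below them are the differences of each replicate number; Nr4a3 stands apart at 1.01 with DMF and −0.89 with GSH added, and no member is filled for DMF + GSH against Ctrl.

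Over the members, DMF called 2 higher (Nr4a3 and Egr2) and 1 lower (Tox), of 9. Among all 11599 genes tested, 17.6% were called higher and 15.6% lower, so that the members' count is near the background. Nr4a3 alone also had an absolute log2FC of at least 0.75, a size that 6.8% of all genes reached with the call. The groups did not overlap for Nr4a3 and Tox, 2 of 9 members, against 41.3% of all genes. The median log2FC was 0.06 over the members and 0.01 over all genes. The ranges of the intervals are wide enough to hold an increase of 0.40 for Egr1 and 0.34 for Egr3, so that a failed test does not show equal levels.

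The comparison of DMF + GSH with DMF uses the same DMF libraries. It called 2 members lower (Nr4a3 and Egr2) and 0 higher with limma, beside 13.7% higher and 15.6% lower over all genes. At an unadjusted p under 0.05, 3 members were higher and 3 lower, beside 23.6% and 25.4% of all genes, and edgeR on the recovered reads called 1 of those that were higher, Tox, with p adj = 0.00805 (0.00419 to 0.112 over all alternatives). Nr4a3 alone passed the threshold with a log2FC of at least 0.75 in size, which 5.69% of all genes did. With the batch term in place of the replicate number, no member was called here, and Nr4a3 had p adj = 0.0102 (8.81e-15 to 0.0112 over all alternatives). Nr4a3, Nfatc1 and Tox did not overlap between the groups, 3 of 9 members beside 38.3% of all genes. The median log2FC was −0.15 over the members and −0.00 over all genes.

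Between DMF + GSH and Ctrl, limma called 0 of 9 members, 0 were under an unadjusted p of 0.05, and edgeR called 0. Over all genes, 0.0% were called higher and 0.0259% lower (3 genes), and 0.00862% also passed the fold; 599 genes were under an unadjusted p of 0.05 and edgeR called 4. The members' log2FC lay between −0.09 and 0.14 with p adj of at least 0.992. The widest interval was that of Egr2, from −0.17 to 0.32, so that differences up to these bounds could go undetected. The groups overlapped for each of the 9 members, while 4.47% of all genes did not overlap.

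Per kilobase of exon, Nfatc1 and Nr4a1 were the most abundant members in Ctrl, at 523 and 476 normalized counts per kb. Nab2 (233), Egr1 (232) and Nr4a2 (213) followed with overlapping ranges, then Nr4a3 (148), Egr2 (114) and Egr3 (102), of which neighbours in the order overlapped. Tox was the lowest at 65.5, with a range below that of Egr3, and the steps from Nr4a1 to Nab2 and from Nr4a2 to Nr4a3 were also without overlap. With DMF, Nr4a3 reached 298 per kb and stood in the third place of the order instead of the sixth, with a range overlapping that of Egr1 (259) but below that of Nfatc1 (487). With DMF + GSH it was again in the sixth place at 160 per kb. Among the NR4A genes, Nr4a1 was above both others in all 3 groups, and the mean of Nr4a3 per kb was below that of Nr4a2 in Ctrl and above it with DMF, where their ranges overlapped.

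**Figure D3:**
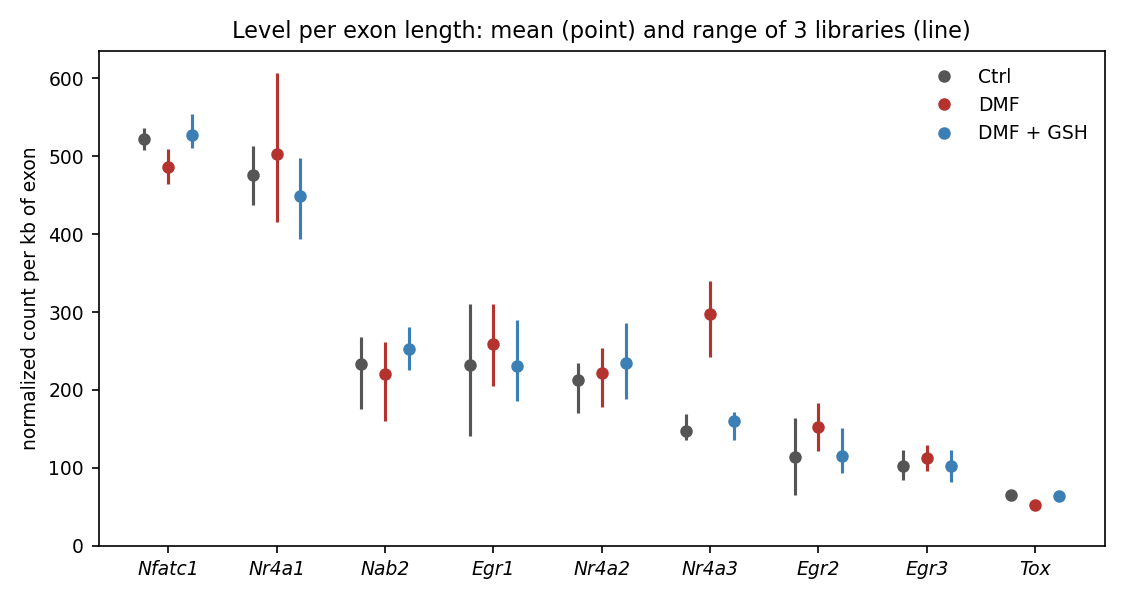
Normalized count per kb of exon (vertical axis, from 0) of the members in order of their Ctrl mean, with points for the group mean and lines from the lowest to the highest of 3 libraries. The red DMF point of Nr4a3 at 298 per kb lies apart from its Ctrl value of 148 and its DMF + GSH value of 160, and Tox goes from 65.5 in Ctrl to 51.9 with DMF.

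Much of the spread of the EGR genes followed the replicate number. Replicate 2 was the highest library in all 3 groups for Nr4a1, Egr1, Egr2 and Egr3, and replicate 1 was the lowest in all 3 groups for Egr1, Egr2 and Nab2. Over the 9 libraries, which share the replicate numbers and the groups, Egr1 and Egr2 had r = 0.96, Nr4a1 and Egr3 had r = 0.88, and Nr4a3 and Tox had r = −0.72. The genes most like Nr4a3 in their pattern over the 9 libraries were Pacrgl (r = 0.97), Pigs (0.97) and Tomm34 (0.96). A correlation does not measure the size of a change. Their log2FC with DMF was 0.62, 0.19 and 0.24, beside 1.01 for Nr4a3, and Pigs was not called (p adj = 0.0146). Those most like Tox were Ston2 (0.98), Tmem194 (0.98) and Stx11 (0.97). Egr1 was closest to Klhl9 (0.97), Cdca4 (0.97) and Exo5 (0.96), and Egr2 to Cdca4 (0.97), Klhdc3 (0.96) and Mief1 (0.95). None of these genes close to Egr1 or Egr2 was called with DMF. Nr4a1 was closest to Suox (0.91), Nr4a2 to Ms4a4c (0.96), Egr3 to Gm5637 (0.90), Nab2 to Bloc1s5 (0.96) and Nfatc1 to Apool (0.95).

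Of 13 relatives and partners of the members, 8 were tested, and DMF called 1 higher and 2 lower, near the shares of 17.6% and 15.6% over all genes. Rxra, the retinoid X receptor with which NR4A1 and NR4A2 can pair, had 158, 92.0 and 145 normalized counts in Ctrl, 420, 204 and 314 in the DMF libraries and 141, 102 and 164 in the DMF + GSH libraries. All DMF libraries lay above the others, and Rxra rose by a log2FC of 1.22 ± 0.127 (p adj = 4.11e-07) with DMF and fell by 1.16 with GSH added. Tox2, the relative of Tox, fell from 125 ± 19.2 to 80.6 ± 24.2 normalized counts (log2FC −0.66, p adj = 0.000991) and was higher with GSH than with DMF alone (0.63, p adj = 0.00169). Nfatc3 fell with DMF (−0.26, p adj = 0.00140), while Nfatc2 (−0.19, p adj = 0.0181), Nab1 (−0.09, p adj = 0.236) and Tox4 (0.10, p adj = 0.140) did not pass. With the batch term in place of the replicate number, 1 gene of this list was called higher and 0 lower with DMF, and 0 for DMF + GSH against DMF. Egr4, below the minimum mean, had 5.94 ± 3.29 normalized counts in Ctrl, 11.1 ± 4.26 with DMF and 8.78 ± 2.90 with DMF + GSH and was not tested.

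Upstream of NFAT, the list of calcium and calcineurin genes had 22 of 25 members tested, of which DMF called 4 lower and 0 higher, with a median log2FC of −0.09. The lower count is near the 15.6% of all genes called lower, and 17.6% of all genes were called higher. For higher values, 2 genes of the list had an unadjusted p under 0.05 and edgeR called 0. The genes called were Orai2, a calcium channel subunit (−0.76, p adj = 4.67e-07), Ppp3cc, a catalytic subunit of calcineurin (−0.70, p adj = 1.10e-07), Itpr3, a calcium release channel (−0.61, p adj = 6.10e-08), and Stim1, the calcium sensor of the endoplasmic reticulum (−0.60, p adj = 1.90e-07). All 4 were higher with DMF + GSH than with DMF, by log2FC of 0.64, 0.63, 0.45 and 0.45 in the same order, and limma called no other gene of the list there, beside 13.7% of all genes called higher and 15.6% lower. For lower values, 1 gene had an unadjusted p under 0.05 and edgeR called 0. With the batch term, 3 genes of the list were called lower with DMF and 1 higher with GSH added.

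Among anergy genes tied to NFAT, EGR2 and EGR3, 12 of 14 were tested, with 3 called higher and 5 lower by DMF, beside 17.6% and 15.6% of all genes, and a median of −0.09. Dgka, a diacylglycerol kinase that dampens receptor signalling, fell by 0.69 (p adj = 6.38e-08), Cblb, a ubiquitin ligase, by 0.78 (p adj = 9.55e-08), and Lag3, an inhibitory receptor, by 0.60 (p adj = 2.75e-06). Crtam, an adhesion receptor of activated CD8+ T cells, rose by 0.54 (p adj = 1.46e-06). For DMF + GSH against DMF, 5 genes of this list were called higher and 2 lower, beside 13.7% and 15.6% of all genes. With the batch term in place of the replicate number, 1 gene of the list was called higher and 1 lower with DMF, and 0 in either direction for DMF + GSH against DMF.

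Of 12 exhaustion genes tied to NR4A and TOX, 10 were tested, and DMF called 3 higher and 3 lower, beside 17.6% and 15.6% of all genes, with a median of −0.08. Tigit, an inhibitory receptor, rose by 1.14 (p adj = 2.16e-08) and Tnfrsf9, the costimulatory receptor 4-1BB, by 0.72 (p adj = 1.30e-08), whereas Ctla4, an inhibitory receptor, fell by 0.80 (p adj = 2.49e-07) and Nt5e, the ectonucleotidase CD73, by 0.62 (p adj = 3.11e-08). Havcr2, the inhibitory receptor TIM-3, was named after its values were seen and had the list's largest log2FC with DMF (3.91, p adj = 1.05e-05). Mean normalized counts of Havcr2 were 44.2 ± 23.7 in the DMF libraries, 2.59 ± 2.88 in Ctrl and 7.29 ± 2.83 in DMF + GSH. The Ctrl and DMF + GSH means lie under the minimum of 10, so that only its DMF values brought this gene into the test. Its p adj, its place in the list and its share in the 3 called higher depend on that selection. DMF + GSH against DMF called 3 higher and 3 lower, beside 13.7% and 15.6% of all genes, and 2 higher and 1 lower with the batch term. For DMF against Ctrl, the batch term gave 3 higher and 2 lower.

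The list of other antigen receptor response genes had 24 of 25 tested, with 11 called higher and 3 lower by DMF, beside 17.6% and 15.6% of all genes, and a median log2FC of 0.25, beside 0.01 over all genes. The 5 lists were written with earlier results of these data known, so that these counts are a description and no test of a list. Ccl3, a chemokine, rose by 1.80 (p adj = 1.39e-08), Il2ra, the IL-2 receptor alpha chain, by 1.05 (p adj = 7.14e-08), Myc by 0.87 (p adj = 9.04e-08) and Xcl1, a chemokine of CD8+ T cells, by 0.85 (p adj = 5.05e-09). The 3 called lower were Elk3 (−0.38, p adj = 3.78e-05), Elk4 (−0.37, p adj = 3.79e-05) and Cd5 (−0.31, p adj = 0.000130). With GSH added to DMF, 4 genes of the list were called higher and 11 lower, beside 13.7% and 15.6% of all genes, with a median of −0.22. With the batch term in place of the replicate number, 4 genes of the list were called higher and 0 lower with DMF, and 0 higher and 3 lower for DMF + GSH against DMF. For DMF + GSH against Ctrl, limma and edgeR called 0 genes in each of the 5 lists, and 0, 2, 3, 4 and 7 genes of the lists, in the order given, had an unadjusted p under 0.05. Over all genes, 2.11% were higher and 3.05% lower at this unadjusted p. The 4 exhaustion genes were all higher (40% of the 10 tested), and of the response genes 16.7% were higher and 12.5% lower.

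**Figure D4:**
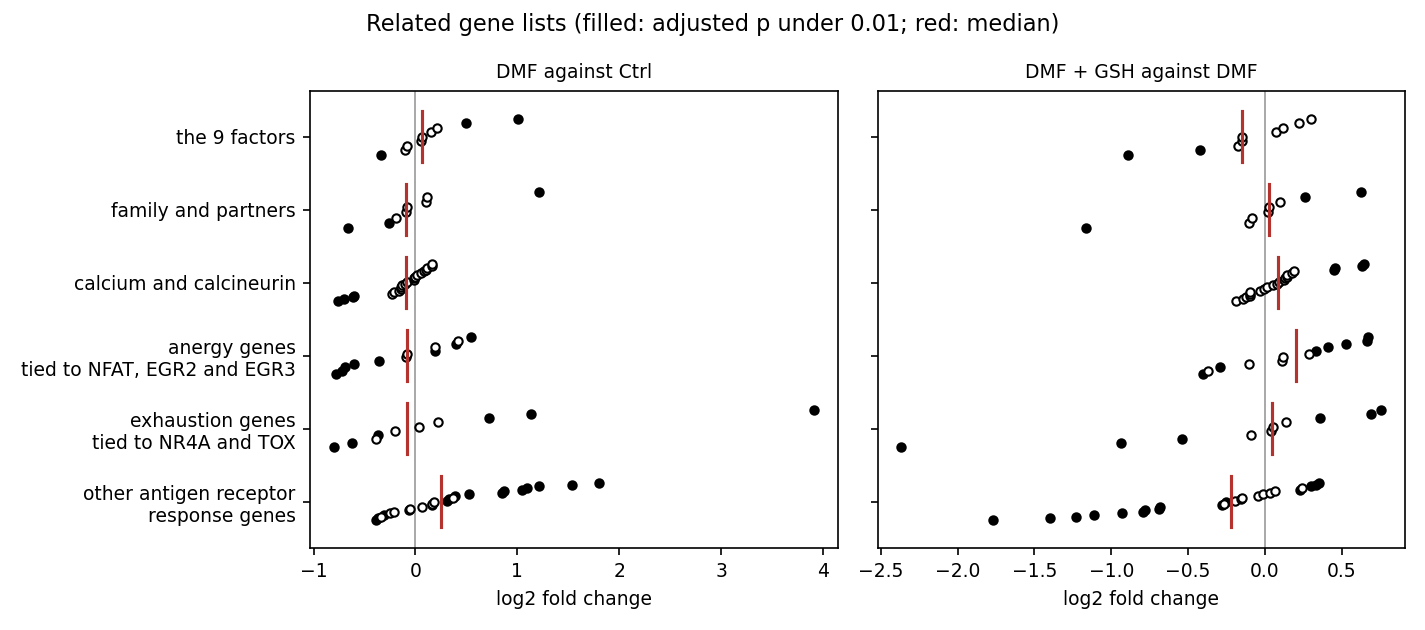
Log2 fold change (horizontal axes, a scale of its own in each panel) of the 9 members and of the tested genes of 5 related lists, for DMF against Ctrl on the left and DMF + GSH against DMF on the right. Filled points have p adj under 0.01 and red lines are medians; the list of other antigen receptor response genes has medians of 0.25 and −0.22, and the other lists have medians between −0.09 and 0.20.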

How the data were processed

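RNA-Seq of murine Tc17 cells covered 9 libraries, with group, replicate number and batch taken from the sample labels. The authors aligned single reads to GRCm38 with STAR 2.4.0b (version per the submitters' processing notes), counted reads per gene with featureCounts and modelled group and batch with DESeq2. The signal values the authors deposited are counts divided by a size factor per library. Their mean and comparison columns (log2 fold change, statistic, p-value and adjusted p) were not used here. The labels give 300 ng of RNA as input, which differs from the methods. Whole reads were recovered for 100% of values (tolerance 0.01), and their sums gave the depth. Ctrl replicate 3 was the shallowest library.

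The test was limma-trend (limma 3.58.1, R 4.3.3) on log2(normalized count + 1) for genes averaging 10 or more normalized counts, in 1 fit of all libraries with group and replicate number as a block. Adjusted p-values (p adj) are Benjamini-Hochberg over all 11599 genes tested, and a call is an adjusted p under 0.01. The replicate numbers stand in the labels, and same-numbered libraries of different groups deviated together (correlations of 0.447 to 0.578 in all 9 pairs, at most −0.0621 otherwise). Deviations from a group mean cancel within the group, so that negative values have to balance the positive ones and are no separate evidence of pairing. The count test was edgeR 4.0.16 (quasi-likelihood) on the recovered reads with the same block; it called 3850 genes for DMF against Ctrl, 3446 for DMF + GSH against DMF and 4 for DMF + GSH against Ctrl. The other alternatives were pseudocounts of 0.5 and 4, other minimum means, TMM rescaling, quantile normalization, robust eBayes, only the 6 libraries compared, no block, and each library left out. The test was checked on simulated counts with 200 genes changed by a log2 size of 1.5, of which 97.5% were called. These counts held no replicate effect and a fixed dispersion of 0.01, so that the check does not cover the pairing or smaller changes. Members and lists were chosen with earlier results of these data known. All members were named, and of each list at most the 4 genes with the smallest p adj plus the closest paralogs of members. Havcr2, Elk3, Elk4 and Cd5 were added after their values were seen. For each member the genes with the highest correlation over libraries were taken from its top 3. Exon lengths and positions are from GENCODE vM21, and promoters from RefSeq GRCm38.p6 (Python 3.11.15, pandas 2.3.3, NumPy 2.4.6, SciPy 1.17.1, Matplotlib 3.10.9).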

Additional observations from a re-analysis of the deposited data

How the results depend on the processing

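Nr4a3 kept its increase with DMF under every alternative tried (log2FC 0.88 to 1.23, p adj at most 0.00432), and its call with GSH under every one but the fits without the pairing, where it was just outside the threshold (p adj = 0.0102 and 0.0112). No replicate block, with the batch term or without it, left 1 member called for DMF against Ctrl (834 and 583 genes in all), 0 for DMF + GSH against DMF (95 and 34 genes) and 0 of all genes for DMF + GSH against Ctrl. There, no minimum gave 23 genes and quantile normalization 1 gene.

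Without 1 library, the members called ranged from 1 to 3 for DMF against Ctrl, from 1 to 2 for DMF + GSH against DMF and from 0 to 0 for DMF + GSH against Ctrl, and all genes called from 2726 to 4044, from 2310 to 3378 and from 0 to 6. Values that changed sign were all of members that were not called in that comparison. With 1 library left out, the log2FC ranged from −0.014 to 0.18 for Nr4a1 and from −0.016 to 0.13 for Nr4a2 (DMF against Ctrl) and from −0.021 to 0.17 for Nr4a2 (DMF + GSH against DMF). For DMF + GSH against Ctrl it ranged from −0.14 to 0.025 for Nr4a1, from −0.0092 to 0.26 for Nr4a3, from −0.13 to 0.12 for Egr1, from −0.13 to 0.21 for Egr2, from −0.13 to 0.11 for Egr3, from −0.023 to 0.059 for Nfatc1 and from −0.14 to 0.049 for Tox. Egr3 also turned from −0.00 to 0.0067 with TMM rescaling and to 0.0087 with edgeR. The Egr2 call for DMF + GSH against DMF was lost without DMF replicate 1 (p adj = 0.0603), DMF replicate 3 (0.0490), DMF + GSH replicate 2 (0.0224) or DMF + GSH replicate 3 (0.0781), with robust eBayes (0.0156) and with quantile normalization (0.0102). The causes of these losses were not tested. The lowest depth behind a member was 214 reads (Egr2 in Ctrl replicate 1).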
